A study of Mus musculus with 10 samples.

Results

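The immediate early genes described here are Fos, Fosb, Fosl2, Jun, Junb, Jund, Egr1, Egr3, Ier3 and Klf4, measured in embryonic mouse hearts with and without the coxsackie-adenovirus receptor (CAR). They were chosen by name, with earlier results of these data known. Each was represented by the row of the array table that names it and no other gene, and each had 1 such row, so that 10 genes of the 19938 with a row of their own were followed. All 10 lay above the background level of the arrays, a log2 signal of 6.51. RNA came from 5 wild type (WT, CAR +/+) and 5 CAR KO (CAR -/-) samples of E10.5 hearts, with 3 hearts pooled in each sample. Embryos came from matings of CAR +/- mice of the line B6.Cg-Cxadrtm1/Fgr, a constitutive loss of CAR in every cell of the embryo, and the hearts received no treatment and were frozen after dissection. Levels were read on Affymetrix Mouse Gene 1.0 ST arrays as log2 signals of transcript clusters, each read by several probes in the exons of a gene. The labels do not say whether samples of a genotype came from separate litters, so p-values measure only the spread between these pools.

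Immediate early genes are transcribed within minutes of a stimulus, without new protein synthesis, when growth factors, stretch, calcium or stress act through MAP kinases on factors such as SRF, its ETS partners and CREB. Fos and Jun proteins pair through leucine zippers to form AP-1, which binds DNA and sets the later response. Egr1 and Egr3 are zinc finger factors, Ier3 encodes a small regulator of survival, and Klf4 is a Krüppel-like factor known from endothelium and epithelium. These mRNAs are short-lived, and they are also known to rise when a tissue is dissected.

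The core promoters of the genes are shown first, because CREB and its relatives, which act on cAMP and calcium signals, recognise the letters TGACG. RefSeq promoters (GRCm38.p6, 250 bases before and 50 after the transcription start) were at hand for 8 of the 10 genes, all but Egr1 and Egr3. Those of Fos, Fosb and Junb, which hold these letters, and of Jun, which does not, are given 5′ to 3′ on the strand of the gene, with each TGACG in capitals. They lie at chr12:85473640-85473939 (plus strand), chr7:19309996-19310295 (minus strand), chr8:84978699-84978998 (minus strand) and chr4:95052173-95052472 (minus strand).
Fos promoter: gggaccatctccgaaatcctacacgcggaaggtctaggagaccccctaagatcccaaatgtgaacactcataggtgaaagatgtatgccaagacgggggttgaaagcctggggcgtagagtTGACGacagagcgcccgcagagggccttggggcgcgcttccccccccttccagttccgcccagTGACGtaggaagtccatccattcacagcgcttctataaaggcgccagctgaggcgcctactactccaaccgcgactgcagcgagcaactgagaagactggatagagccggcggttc
Fosb promoter: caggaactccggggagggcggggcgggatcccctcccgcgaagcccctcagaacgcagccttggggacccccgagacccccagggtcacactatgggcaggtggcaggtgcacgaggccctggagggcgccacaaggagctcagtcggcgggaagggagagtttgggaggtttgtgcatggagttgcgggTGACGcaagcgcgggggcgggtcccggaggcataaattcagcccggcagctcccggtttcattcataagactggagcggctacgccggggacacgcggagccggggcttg
Junb promoter: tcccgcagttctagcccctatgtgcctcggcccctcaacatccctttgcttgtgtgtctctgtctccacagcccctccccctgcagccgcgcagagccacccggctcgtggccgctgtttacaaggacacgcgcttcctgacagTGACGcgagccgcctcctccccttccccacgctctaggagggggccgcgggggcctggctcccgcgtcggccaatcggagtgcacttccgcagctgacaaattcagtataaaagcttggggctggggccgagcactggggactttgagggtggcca
Jun promoter: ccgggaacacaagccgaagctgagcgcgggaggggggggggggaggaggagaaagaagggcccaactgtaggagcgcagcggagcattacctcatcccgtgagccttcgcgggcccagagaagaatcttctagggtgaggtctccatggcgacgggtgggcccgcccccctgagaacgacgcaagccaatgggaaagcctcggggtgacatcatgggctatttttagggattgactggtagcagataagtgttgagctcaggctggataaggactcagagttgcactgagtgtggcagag

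On either strand TGACG was present in 4 of the 8 promoters, those of Fos, Fosb, Junb and Klf4, against 20.8% of all 32851 promoters of the same length. Counted from the start, it began at positions -129 and -66 in the Fos promoter, at -60 in Fosb and at -106 in Junb, and in Klf4 it lay on the opposite strand. The EGR site GCGNGGGCG was found in Fosb, Fosl2 and Klf4, against 5.55% of all promoters, and in Fosb it began at -50 and did not overlap TGACG. The full CRE palindrome TGACGTCA, the AP-1 site TGANTCA and the CArG box of SRF occurred in none of the 8, and in 1.79%, 7.81% and 1.63% of all promoters. These are matches of letters in a short window and not measured sites.

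Cxadr, the gene of CAR, was lower in every CAR KO sample (6.23 to 6.69) than in every WT sample (8.24 to 8.66), in accord with the labels. It was the 1 transcript cluster of 28944 with an adjusted p under 0.05 from limma. Array medians ran from 7.65 to 7.73. All 10 cardiomyocyte markers were above background, with a mean between 12.80 and 13.14 in all samples. CAR KO sample 5 stood apart. It had the highest mean of the liver and yolk sac markers (11.20, against 7.14 to 9.24 in the other CAR KO samples) and the lowest means of the cardiomyocyte (12.80) and endothelial (10.73) markers. WT sample 5 departed from the other WT samples in the same direction. Its liver and yolk sac mean was 10.12, its cardiomyocyte mean 12.85 and its endothelial mean 10.91. Values without CAR KO sample 5 stand beside the results that it moved most.

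Expression of the immediate early genes did not pass the test for a difference between WT and CAR KO hearts. None of the 10 had an adjusted p under 0.05 from limma (0.00345% of all clusters did), and 1, Jun, had an unadjusted p under 0.05, against 2.4% of all clusters. Jun was lower in CAR KO hearts, as were 1.43% of all clusters at that threshold. The difference of means was positive for 5 genes (Fos, Junb, Egr1, Egr3 and Ier3) and negative for 5 (Fosb, Fosl2, Jun, Jund and Klf4), with a median of 0.04 on the log2 scale, beside 0.01 over all clusters. The genotypes overlapped for all 10 genes (0.359% of all clusters did not overlap). A change of 1.5-fold or more, up or down, fell outside the 95% confidence interval (CI) for 8 genes. For Egr1 and Ier3 a 1.5-fold rise lay inside the interval and a 1.5-fold fall outside it. In whole hearts, fewer cells of a type and less RNA per cell cannot be told apart.

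**Figure D1:**
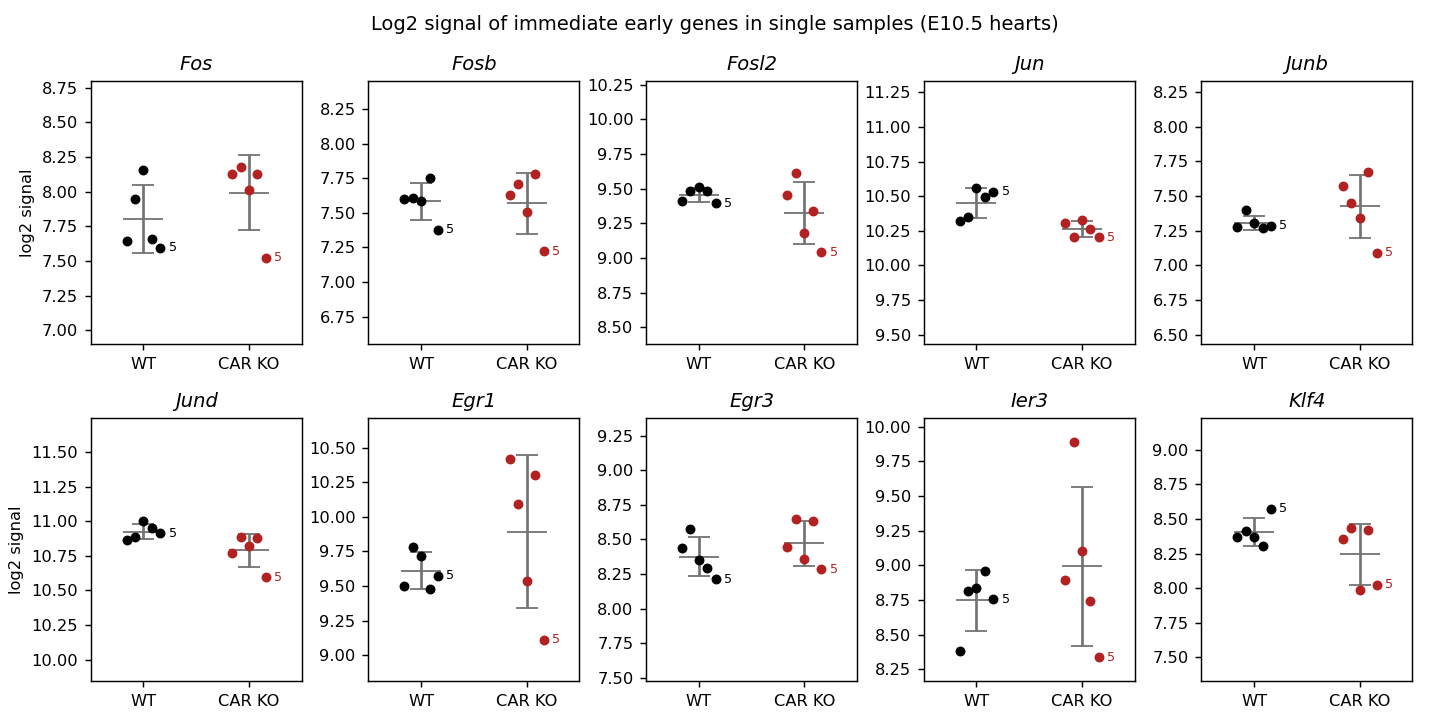
Log2 signal of the 10 immediate early genes by sample, with WT in black and CAR KO in red (5 samples of each genotype); grey bars show the mean and SD, the digit marks sample 5 of each genotype, and every panel spans the same height. The CAR KO samples of Egr1 and Ier3 are widely spread, and CAR KO sample 5 is the lowest of all 10 samples for 8 of the genes.

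Egr1, a zinc finger factor that relays growth factor and stretch signals, had a mean difference of 0.28 between genotypes, the largest of the 10 with all samples, though Ier3 exceeded it when CAR KO sample 1, CAR KO sample 4 or WT sample 4 was left out. Its log2 signal in WT samples 1 to 5 was 9.50, 9.78, 9.72, 9.48 and 9.57, and in CAR KO samples 1 to 5 it was 10.42, 10.09, 9.54, 10.30 and 9.11. CAR KO samples 1, 2 and 4 lay above all WT samples, sample 3 lay among them and sample 5 lay below them. WT pools averaged 9.61 ± 0.13 and CAR KO pools 9.89 ± 0.55 (SD, n = 5 each). This left a log2 fold change of 0.28 (95% CI -0.19 to 0.75, unadjusted p = 0.217 from limma; exact permutation test, two-sided, p = 0.302). Without CAR KO sample 5 the log2 fold change was 0.48 (95% CI 0.13 to 0.82, unadjusted p = 0.0110 and adjusted p = 0.939 from limma). It moved the other way, to 0.15 and 0.18, without CAR KO sample 1 or CAR KO sample 4 (unadjusted p = 0.487 and 0.432 from limma).

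Egr3, a related factor known from muscle spindles and lymphocytes, had log2 signals of 8.44, 8.58, 8.35, 8.30 and 8.21 in the WT samples. In the CAR KO samples the signals were 8.44, 8.65, 8.36, 8.64 and 8.28. CAR KO samples 2 and 4 lay above the WT range and the other 3 lay within it. CAR KO minus WT came to a log2 fold change of 0.10 (95% CI -0.10 to 0.30). With single samples left out it ran from 0.06 (without CAR KO sample 2, CAR KO sample 4 or WT sample 5) to 0.15 (without WT sample 2 or CAR KO sample 5).

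Fos, the best known partner in AP-1, had log2 signals of 7.64, 7.95, 8.16, 7.66 and 7.60 in WT samples 1 to 5. In CAR KO samples 1 to 5 the signals were 8.13, 8.18, 8.01, 8.12 and 7.52. CAR KO samples 1 to 4 lay close together near the highest WT sample, whereas CAR KO sample 5 was the lowest of all 10. The log2 fold change was 0.19 (95% CI -0.12 to 0.50, unadjusted p = 0.202 from limma), and without CAR KO sample 5 it was 0.31 (0.06 to 0.56, unadjusted p = 0.0188, adjusted p = 0.939). It was 0.14 without WT sample 5, the lowest WT sample (unadjusted p = 0.371 from limma).

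Fosb, a second FOS family member known for slow build-up in neurons, averaged 7.58 ± 0.13 over WT pools and 7.57 ± 0.22 over CAR KO pools (SD, n = 5 each). WT signals spanned 7.38 to 7.75, and those of CAR KO samples 7.22 to 7.78. Its log2 fold change was -0.02 (95% CI -0.24 to 0.21), and without CAR KO sample 5 it was 0.07. Fosl2, which encodes the FOS-related factor FRA-2, was held in a narrow range in WT hearts, from 9.40 to 9.51. In CAR KO samples it ran from 9.04 to 9.62, with 3 samples below all WT samples and 1 above them. The log2 fold change was -0.13 (95% CI -0.34 to 0.08), but -0.06 without CAR KO sample 5 and -0.20 without CAR KO sample 2.

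Jun, the main DNA-binding partner of FOS, was the member with the smallest p. Its log2 signal was 10.32, 10.35, 10.56, 10.49 and 10.53 in WT samples 1 to 5. In CAR KO samples 1 to 5 it was 10.31, 10.21, 10.33, 10.26 and 10.20. Of the CAR KO samples 4 lay below all WT samples, and sample 3 lay just above WT sample 1. The log2 fold change was -0.19 (95% CI -0.33 to -0.05), which is 0.877 of the WT level on the linear scale. The unadjusted p was 0.0109 and the adjusted p 0.999972 from limma, and an exact permutation test (two-sided) gave p = 0.0159. The unadjusted p of Jun stayed under 0.05 when any 1 sample was left out, with log2 fold changes from -0.22 to -0.16, and after quantile normalization. The mean of 6 epicardial markers (all above background) was also lower in CAR KO hearts, 9.90 to 10.37 against 10.33 to 10.51 in WT hearts. Epicardium was not alone in this. Macrophage markers (8 of 10 above background) averaged 8.12 in WT (7.93 to 8.62) and 7.88 in CAR KO hearts (7.66 to 8.24). Neural markers (4 of 6) averaged 7.59 (7.48 to 7.87) and 7.43 (7.27 to 7.58). The genotypes overlapped for both lists, and WT sample 5 held the highest value of each. Cushion mesenchyme markers (10.19 and 10.21) and epithelium markers (8.09 and 8.32) went the other way. The part of any of these cells in the level of Jun was not tested.

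Jund, a JUN protein that is expressed without a stimulus in most cells, averaged 10.92 ± 0.05 over WT pools and 10.79 ± 0.12 over CAR KO pools (SD, n = 5 each). Of the CAR KO samples 3 lay below all WT samples. The log2 fold change was -0.13 (95% CI -0.28 to 0.01, unadjusted p = 0.0618 from limma; exact permutation test, two-sided, p = 0.0317). Without CAR KO sample 5 it was -0.09 (-0.20 to 0.03).

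Junb, a JUN protein that can hold back Jun, was nearly constant in WT hearts, with log2 signals of 7.27, 7.40, 7.31, 7.27 and 7.28. In the CAR KO samples it was at 7.58, 7.45, 7.34, 7.67 and 7.09. As for Egr1, samples 1, 2 and 4 lay above all WT samples and sample 5 lay below them. Its log2 fold change was 0.12 (95% CI -0.09 to 0.33), and without CAR KO sample 5 it was 0.20 (0.05 to 0.36, unadjusted p = 0.0157 and adjusted p = 0.939 from limma). Without CAR KO sample 4 it was 0.06 (unadjusted p = 0.530 from limma).

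Ier3, which limits cell death after stress, had the highest single deviation of the list. Its log2 signal was 8.38, 8.81, 8.84, 8.96 and 8.75 in WT and 8.89, 9.89, 9.10, 8.74 and 8.34 in CAR KO samples. CAR KO sample 2 stood far above every other sample, CAR KO sample 3 was the other one above the WT range, and CAR KO sample 5 lay below it. This gave a log2 fold change of 0.24 (95% CI -0.26 to 0.75). It was 0.02 without CAR KO sample 2, 0.15 without WT sample 1 and 0.41 without CAR KO sample 5. Klf4, a factor that responds to shear stress in endothelium, spanned 8.31 to 8.57 in WT samples, and 7.99 to 8.43 among CAR KO samples. CAR KO samples 3 and 5 were lowest, and the log2 fold change was -0.16 (95% CI -0.38 to 0.06). It was -0.10 when either of these samples was left out.

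**Figure D2:**
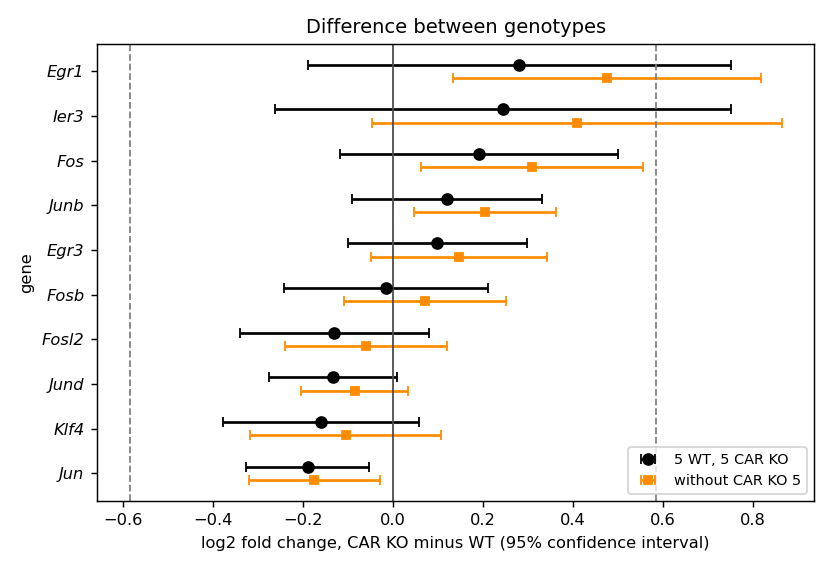
Difference of the log2 signal, CAR KO less WT, for each immediate early gene with its 95% confidence interval from limma, for all samples (black circles) and without CAR KO sample 5 (orange squares); dashed lines mark a 1.5-fold change. With all samples the interval of Jun alone excludes 0, and without CAR KO sample 5 those of Egr1, Fos and Junb exclude it on the opposite side.

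The count of genes with an unadjusted p under 0.05 depended on single CAR KO samples. Without sample 2 it was 3 (Jun, Jund and Fosl2, all lower, against 2.17% of all clusters), and without sample 4 it was 2 (Jun and Jund, both lower, against 2.10%). Without sample 5 it was 4 of 10, with Fos, Egr1 and Junb higher and Jun lower in CAR KO hearts, while the share over all clusters rose from 2.4% to 3.56%. Without the 3 samples with the highest liver and yolk sac mean (WT samples 2 and 5 and CAR KO sample 5) these 4 genes again had an unadjusted p under 0.05, against 4.19% of all clusters. With limma's array weights there were 5, the same 4 genes and Jund, against 6.26%. None of the 10 passed the adjusted threshold under any of these settings.

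The spread between samples of a genotype was larger for several of the genes than for most of the array. The SD within genotypes, pooled over both, was 0.44 for Ier3, 0.40 for Egr1 and 0.26 for Fos on the log2 scale, against a median of 0.13 over the 14661 genes above background. These values lay at the 98.3, 98.0 and 93.1 percentile of those genes. Jun and Jund were at the 20.5 and 24.6 percentile. The SD was larger among CAR KO than among WT samples for 9 of the 10 genes, Jun being the exception, beside 65.1% of genes above background. For Egr1 the SD in CAR KO hearts was 4.11 times that in WT hearts. Without CAR KO sample 5 the SD was larger in CAR KO hearts for 7 genes, beside 49.1% of genes above background. Fos (0.07 against 0.24 in WT) and Fosb (0.12 against 0.13) then turned the other way, and Jund and Egr3 had ratios of 1.01 and 1.02. For Egr1 the ratio was then 2.91, and the pooled SD of Ier3, Egr1 and Fos lay at the 98.5, 96.5 and 87.4 percentile. The difference in spread was not tested.

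CAR KO sample 5 held the lowest value of all 10 samples for 8 of the genes, the exceptions being Egr3 and Klf4, whereas 28.3% of genes above background had their lowest value there. Averaged over the 10 genes, the deviation from the gene mean was -0.34 in CAR KO sample 5. In the other CAR KO samples it was 0.12 in sample 1, 0.23 in sample 2, -0.06 in sample 3 and 0.13 in sample 4. The WT samples lay between -0.10 and 0.06. The CAR KO samples thus held both ends of the range, and the WT samples lay between them.

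**Figure D3:**
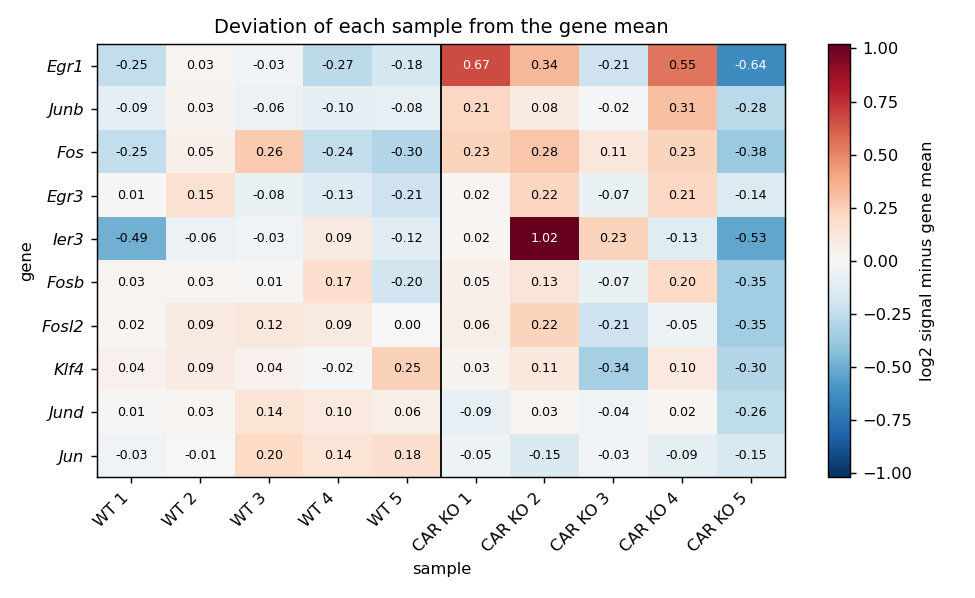
Log2 signal of each gene in each sample minus the mean of that gene over all 10 samples, in red above and blue below the mean; the line parts WT from CAR KO samples. CAR KO samples 1, 2 and 4 are red for Egr1, Junb and Fos, and CAR KO sample 5 is blue in every row.

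Whether the genes varied together over the samples was examined with all 45 pairs. Pearson's r was positive for 40 pairs and ran from -0.579 to 0.957, with a median of 0.446. No share over all pairs of genes on the array was taken. Of all genes above background, 55.8% had a positive r with Fos and 55.2% with Egr1. After Benjamini-Hochberg adjustment over the 45 pairs 1 pair passed 0.05, and 14 had an unadjusted permutation p under 0.05. The passing pair was Egr1 and Junb, with r = 0.957 (permutation p = 7.0e-05, adjusted p = 0.00315) and Spearman's rho of 0.952 (permutation p = 8.0e-05, adjusted p = 0.00360). Their r was 0.942 without CAR KO samples 1 and 4, which lay farthest from the median, 0.938 without CAR KO sample 5, and 0.879 within WT and 0.955 within CAR KO hearts. Without the 3 samples with the highest liver mean it was 0.934 over 7 samples (adjusted p = 0.235 over the pairs, permutation).

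Fos followed the same samples less tightly. Its r was 0.796 with Egr1 (permutation p = 0.00600, adjusted p = 0.106; rho 0.745, permutation p = 0.0175, adjusted p = 0.159). With Junb it was 0.761 (permutation p = 0.00705, adjusted p = 0.106; rho 0.745, permutation p = 0.0177, adjusted p = 0.159). Without WT sample 5 and CAR KO sample 5 these values were 0.711 and 0.631. Fos and Egr1 also varied together within WT hearts (r = 0.828) and within CAR KO hearts (r = 0.876), each over 5 samples.

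Over all samples Jun did not follow these genes. Its r was -0.208 with Egr1, -0.236 with Junb and -0.150 with Fos, and its lowest was -0.579 with Egr3. Within CAR KO hearts r with Egr1, Junb and Fos was 0.274, 0.383 and 0.395, and within WT hearts it was 0.00890, -0.362 and 0.199, so that most signs turned within genotypes. With Egr3 it was negative in both, -0.206 in CAR KO and -0.792 in WT hearts. Its highest was 0.696 with Jund (permutation p = 0.0178, adjusted p = 0.114; rho 0.782, permutation p = 0.0106, adjusted p = 0.159), or 0.594 without WT samples 3 and 5. Within genotypes the r of Jun and Jund was 0.852 in WT and 0.265 in CAR KO hearts. Fosl2 with Klf4 had r = 0.762 (permutation p = 0.0172, adjusted p = 0.114; rho 0.430, permutation p = 0.218, adjusted p = 0.490), and this rested on 2 samples, being -0.223 without CAR KO samples 3 and 5.

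**Figure D4:**
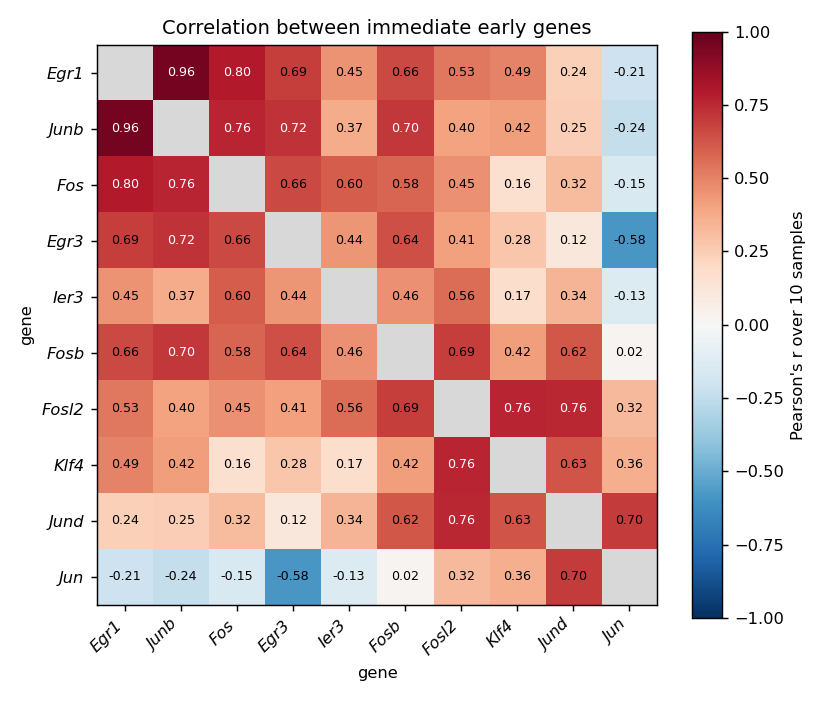
Pearson's r over 10 samples for every pair of the 10 immediate early genes, from blue (negative) to red (positive), with the value in each cell. Egr1, Junb, Fos and Egr3 form a block of r from 0.66 to 0.96, and Jun is negative with each of them.

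Covariation over the list as a whole rested largely on CAR KO sample 5. The median r over the pairs was 0.767 within CAR KO and 0.224 within WT hearts, and it fell to 0.223 over all samples but CAR KO sample 5, with 30 of 45 pairs positive. Without that sample 53.8% of all genes above background had a positive r with Fos and 51.2% with Egr1. With deviations from the genotype means in place of the values the median was 0.644.

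The pattern of Egr1 across single samples is plotted against those of Junb, Nr4a1, Fos and Jun. Nr4a1, an orphan nuclear receptor and immediate early gene, was picked after its values were seen. Its log2 signal was 9.58, 9.71, 9.72, 9.61 and 9.50 in WT and 10.19, 10.03, 9.50, 10.17 and 9.02 in CAR KO samples. CAR KO samples 1, 2 and 4 were again the highest and CAR KO sample 5 the lowest, and r with Egr1 was 0.973.

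**Figure D5:**
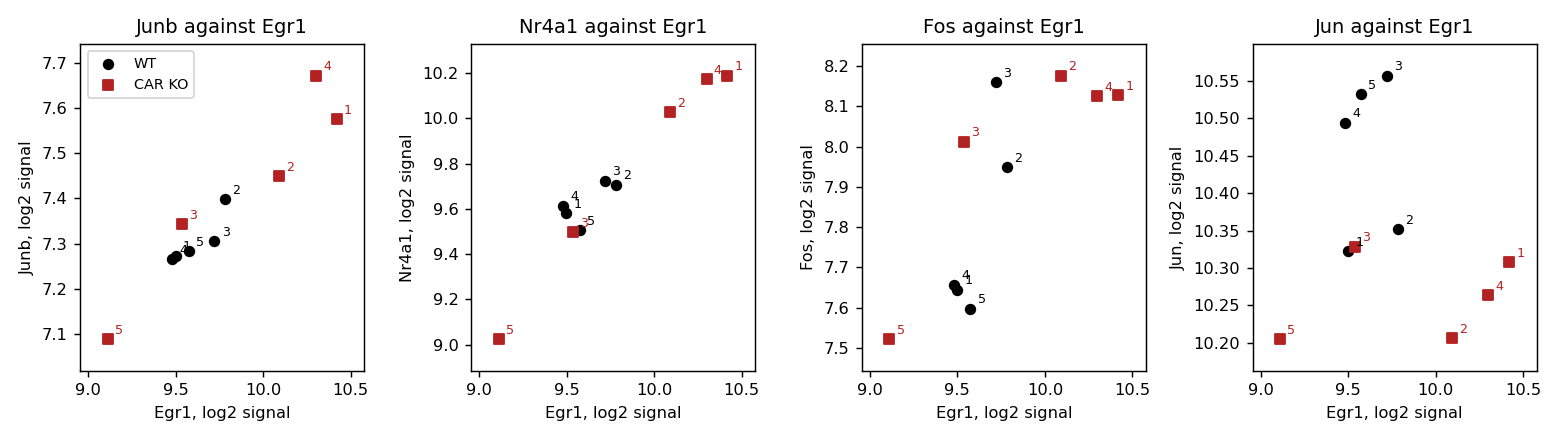
Log2 signal of Junb, Nr4a1, Fos and Jun against that of Egr1, with the sample number beside each point, for WT (black circles) and CAR KO (red squares). Junb and Nr4a1 rise with Egr1 over both genotypes, Fos does so with more scatter, and Jun does not.

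Genes whose pattern was most like that of Fos were ranked by Pearson's r over the 10 samples among 14660 genes above background. Egr2, another EGR factor, came first (r = 0.918, and 0.895 without CAR KO sample 5), followed by Etv3, an ETS family repressor (0.917), and Coq10a, a coenzyme Q binding protein (0.915). Rtl4, Zfp607b, Rab33a, Gcdh, Septin4, Ppp1r3b and Arpc1a completed the first 10, down to r = 0.879. None of these is among the 10 members, of which Egr1 (rank 119) and Junb (rank 235) came nearest. The lowest r belonged to Tbl1x (-0.894), Rexo1 (-0.894), Klhl20 (-0.893), Mon1b (-0.890) and Usf3 (-0.886). With 10 samples and so many genes, high values of r arise from the ranking alone.

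A wider list of 59 other primary response genes, with growth factor and stress targets, gave similar counts. None had an adjusted p under 0.05 from limma, and 1 (1.69%) had an unadjusted p under 0.05, against 2.4% of all clusters. This was Cited2, a regulator of hypoxia signalling and heart development, averaging 11.89 ± 0.09 over WT pools and 12.07 ± 0.14 over CAR KO pools (SD, n = 5 each), a log2 fold change of 0.17. The count was 0 without WT sample 2, WT sample 4, WT sample 5 or CAR KO sample 3 (beside 3.34%, 1.42%, 2.08% and 2.21% of all clusters). It was 2 without WT sample 1 or CAR KO sample 1 (beside 2.65% and 2.93%), and 5 without CAR KO sample 5 (beside 3.56%). The median log2 fold change was 0.00118, and 30 genes were higher and 29 lower. The next smallest p-values were those of Ier5 (log2 fold change -0.13), Maff (0.18), Trib1 (-0.10) and Plk3 (-0.13). Among the brightest were Id2 (log2 fold change 0.0014), Zfp36l1 (-0.01), Dusp1 (0.02) and Plk2 (-0.04). Changes of 1.5-fold or more fell outside the 95% confidence interval for 58 of the 59, Nr4a1 being the exception with -0.27 to 0.59.

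Of the 57 of these genes above background, 46 had a positive r with Fos (80.7%, beside 55.8% of all genes above background), with a median of 0.453 beside 0.105. Without CAR KO sample 5, 42 were positive (73.7%, beside 53.8%) and the medians were 0.351 and 0.0506. With Egr1 42 were positive (73.7%, beside 55.2%), with a median of 0.383 beside 0.104. Without CAR KO sample 5, 36 were positive with Egr1 (63.2%, beside 51.2%), with a median of 0.224 beside 0.0188.

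The kinases and factors upstream of the immediate early genes were measured with 24 of 29 listed genes, all above background. None had an adjusted or an unadjusted p under 0.05 from limma (2.4% of all clusters had the latter), and the methods' t-test gave 1 at an unadjusted p under 0.05, beside 2.63% of all clusters. The median log2 fold change was -0.05, with 18 genes lower and 6 higher. Elk4, an ETS partner of SRF, had the smallest p with a log2 fold change of -0.11 (95% CI -0.22 to 0.01). It was followed by the kinase Mapk10 (-0.29), the cAMP-responsive factor Crem (-0.11), the kinase Map2k4 (-0.14) and the ETS factor Elk3 (-0.12). Nab2, a corepressor of EGR factors, was the brightest and differed by -0.15. Map2k2, Mapkapk2 and Atf2 were also among the brightest and differed by -0.04, -0.03 and -0.03. The count was 1 when WT sample 1, WT sample 2 or CAR KO sample 2 was left out (beside 2.65%, 3.34% and 2.17% of all clusters), and 2 when CAR KO sample 5 was (beside 3.56%).

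Other cell types and stress transcripts were followed in 10 marker lists, each averaged over its members above background and compared with each of the 10 genes. None of the 100 relations passed Benjamini-Hochberg adjustment, and 20 had an unadjusted permutation p under 0.05. The endothelial and endocardial list (10 of 10 markers above background, 10.91 to 11.20 in WT and 10.73 to 11.18 in CAR KO hearts) had a positive r with all 10 genes, from 0.207 to 0.890 with a median of 0.657. Without CAR KO sample 5 the median was 0.421, with 8 positive. The cardiomyocyte list (10 of 10, 12.85 to 13.13 in WT and 12.80 to 13.14 in CAR KO hearts) had a median r of 0.568. With WT sample 5 and CAR KO sample 5 both left out, r was -0.338 for Ier3, -0.0122 for Fos and -0.00994 for Egr3. It was then 0.00789 for Fosl2, 0.0135 for Jun, 0.144 for Jund, 0.231 for Junb and 0.235 for Egr1. For Klf4 it was 0.327 and for Fosb 0.4001. The median r of the cardiomyocyte list was 0.214 without CAR KO sample 5. The liver and yolk sac list (10 of 11 markers had a row, all above background; 7.71 to 10.12 in WT and 7.14 to 11.20 in CAR KO hearts) had a negative r with all 10, with a median of -0.363, or -0.0593 with 4 positive without that sample. The epicardium list was lower in CAR KO hearts, with a median log2 fold change of -0.26. Of its 6 markers 4 had an unadjusted p under 0.05 from limma (2.4% of all clusters did), and none passed adjustment. Over all 10 samples its highest r was with genes that, like the list itself, were lower in CAR KO hearts. With Jund r was 0.824 (permutation p = 0.00256, adjusted p = 0.0853; rho 0.903, adjusted p = 0.0840 by permutation), and 0.955 without CAR KO samples 4 and 5. Within genotypes it was 0.890 in WT and 0.644 in CAR KO hearts. With Fosl2 it was 0.762 (rho 0.709; adjusted p = 0.167 and 0.498 by permutation), 0.536 without those samples, and 0.780 within WT and 0.774 within CAR KO hearts. With Jun it was 0.719 (rho 0.806; adjusted p = 0.167 and 0.229 by permutation), 0.633 without those samples, and 0.721 within WT and 0.161 within CAR KO hearts. Within genotypes the highest r of the epicardium list was with Ier3, whose mean was higher in CAR KO hearts. That r was 0.907 within WT and 0.947 within CAR KO hearts, but 0.350 over all samples. The cushion mesenchyme list (6 of 6, 9.95 to 10.42 in WT and 10.05 to 10.56 in CAR KO hearts, highest in CAR KO sample 5) had a negative r with 9 of the 10 genes and a median of -0.524, or -0.214 without CAR KO sample 5. Its rho with Egr3 was -0.830 (adjusted p = 0.229 by permutation). The macrophage, neural, erythroid and epithelium lists had a median r of -0.389, 0.225, -0.162 and -0.370. Without CAR KO sample 5 these medians were -0.292, -0.113, -0.275 and -0.00301. With Jun alone r was 0.685 for the neural list (rho 0.491; adjusted p = 0.167 and 0.649 by permutation). For the macrophage list it was 0.480 (adjusted p = 0.393 by permutation). Within genotypes the macrophage r was 0.567 in WT and -0.625 in CAR KO hearts, and the neural r 0.546 and 0.530. Without WT sample 5 and CAR KO sample 5 the macrophage r was 0.668 and the neural r 0.425. The part of these cells in the levels of the immediate early genes was not tested.

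Fosb and the endothelial list had the highest r, 0.890 (permutation p = 0.00171, adjusted p = 0.0853; rho 0.576, permutation p = 0.0884, adjusted p = 0.649). It fell to 0.447 without WT sample 5 and CAR KO sample 5. For the heat shock list (7 of 7 with a row above background, 11.19 to 11.31 in WT and 11.24 to 11.37 in CAR KO hearts) the median r with the 10 genes was -0.0453, with 4 positive and 6 negative. The lowest was -0.718 with Klf4 (permutation p = 0.0191, adjusted p = 0.167; rho -0.539, permutation p = 0.113, adjusted p = 0.649). Within genotypes that r was -0.784 in WT and -0.663 in CAR KO hearts, and without WT sample 5 and CAR KO sample 3 it was -0.246.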

How the data were processed

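Gene expression in E10.5 hearts was measured in 10 samples of 3 pooled hearts each, 5 of them WT and 5 CAR KO by their titles, on Affymetrix Mouse Gene 1.0 ST arrays. The authors deposited log2 signals per transcript cluster; the submitters' processing notes name MAS5, and the sources used here do not give the normalization between arrays. Of 35556 rows, 6612 control rows were set aside by identifier. Symbols came from the platform annotation; 21789 clusters name 1 gene, 1621 several and 5534 none. A gene was represented by its brightest cluster that names no other gene. The background level was the 95th percentile of 1210 odorant and vomeronasal receptor clusters. The 10 genes and all lists were chosen with earlier results of these data known. limma 3.58.1 (R 4.3.3) tested CAR KO against WT over 28944 clusters, with Benjamini-Hochberg adjustment, and with exact permutation tests; correlations used 100000 permutations (SciPy 1.17.1). The procedure was tested on simulated data. Genes were named by rule: all members, from the primary response and upstream lists the 5 of highest mean and the 5 of smallest p, the 10 most like and 5 least like Fos, and Cxadr. Nr4a1, and genes ranked by likeness to Egr1, fall outside it. The number of arrays limits the precision. Alternatives were other scalings, filters, priors and tests, array weights, a replicate block and samples left out; a run without liver-rich samples and a liver covariate, and the spread without CAR KO sample 5, were added after seeing the data.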

Additional observations from a re-analysis of the deposited data

Results flagged for a closer look

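Among 58 groups of 5 samples examined (the 10 genes, the named genes of the wider lists and the mean deviation of the 10 genes, in each genotype), 6 held 1 sample well separated from the rest; about 1 group in 20, or 2.9 here, would do so by chance. CAR KO sample 5 was lowest among CAR KO samples for Fos (gap of 0.749 of the range), for the kinase gene Plk3 (0.796) and for Mapkapk2 (0.789). WT sample 5 was the highest for Trib1 (0.878) and Mapk10 (0.754). WT sample 1 was the lowest for Plk2 (0.738).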

How the results depend on the processing

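No immediate early gene had an adjusted p under 0.05 under any alternative run, and the median log2 fold change of the 10 genes lay between -0.02 and 0.11 with samples left out. Each gene has 1 row, so averaging rows changed none of the 10. Of the 10 genes 1 had an unadjusted p under 0.05, but 2 did with the intensity trend and robust prior, the methods' t-test or the liver marker mean as covariate, 5 with array weights, 4 without the liver-rich samples (WT samples 2 and 5 and CAR KO sample 5), and between 1 and 4 when single samples were left out. Array weights called 2 clusters. Of the other primary response genes 0 passed with centring, 2 with the filter on dim clusters, the methods' t-test, the replicate block, the liver covariate or without the liver-rich samples, 4 with array weights, and 0 to 5 with samples left out. Of the upstream genes 1 passed with the methods' t-test, array weights, the replicate block, the liver covariate, averaged rows or no liver-rich samples, and between 0 and 2 when single samples were left out. The share of all clusters moved too. It was 2.30% with the intensity trend and robust prior, 2.34% with centring and 2.38% with averaged rows. With the t-test it was 2.63%, with the filter 2.80% and with the liver covariate 2.84%. It was 4.19% without the liver-rich samples, 4.51% with the replicate block and 6.26% with array weights. Single samples left out gave 1.42% to 3.56%. The difference of Fosb changed sign without the liver-rich samples (0.00967) and with samples left out (-0.0686 to 0.0708). The median r over the pairs was 0.644 with deviations from genotype means, 0.345 with Spearman's rho, 0.236 without the liver-rich samples, and between 0.223 and 0.553 when single samples were left out. The r of Fos with Jun was 0.255 with deviations and -0.455 to 0.0534 with samples left out. With Jund it was -0.140 without the liver-rich samples, and between -0.200 and 0.457 when single samples were left out, with Klf4 -0.186 to 0.437, and with Fosb -0.0423 without the liver-rich samples. Without WT sample 3 the pairs of Fos with Junb (0.866) and Egr1 (0.861) passed the adjustment, so that 3 pairs did. Apart from fewer clusters or samples, the cause was not tested. A replicate block on sample number left 1 of the 10 genes with an unadjusted p under 0.05, as without it, and 1304 clusters against 696. Between samples sharing a number, the correlation of deviations ran from 0.0727 to 0.561. The best match was the sample of the same number for 4 of 5 CAR KO and 3 of 5 WT samples. The highest correlation was that of number 5, whose samples had the 2 highest liver and yolk sac means (10.12 in WT and 11.20 in CAR KO). The labels name no pairing, and whether samples were paired was not tested. With the block the unadjusted p from limma was 0.0973 for Fos (0.202 without it) and 0.0123 for Jun (0.0109 without it).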

Other observations

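The genes most like Egr1 over the 10 samples were looked at after its values were seen. Among 14660 genes above background, Nr4a1 ranked first (r = 0.973, and 0.976 without CAR KO sample 5), Junb second (0.957) and Apold1, an endothelial gene known to respond early to stimuli, came next (0.957, and 0.942 without CAR KO sample 5). Klf10, an early gene of TGF-beta signalling, ranked eighth with 0.919. Within WT hearts r was 0.734 for Nr4a1, 0.757 for Apold1 and 0.674 for Klf10. Other genes of the first 10 ranged widely within WT hearts, from 0.905 for Cdc42bpg, 0.796 for Epsti1 and 0.756 for Nipal3 to 0.141 for Adhfe1 and -0.250 for 4930581F22Rik. Dusp1, a MAP kinase phosphatase, had r = 0.874 with Egr1 (rank 38), and Klf2, a shear stress factor of endothelium, had 0.821 (rank 124). High values of r arise from such a ranking alone.

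Hspa1a, the inducible heat shock protein gene, was also looked at after its values were seen. Its log2 signal was 7.32, 7.54, 7.45, 7.61 and 7.26 in WT and 7.61, 7.72, 7.88, 7.73 and 7.49 in CAR KO samples, and 4 CAR KO samples lay above all WT samples. The highest was CAR KO sample 3, in which Egr1 was within the WT range. CAR KO exceeded WT by 0.25 on the log2 scale (95% CI 0.06 to 0.44, unadjusted p = 0.0146 and adjusted p = 0.999972 from limma). Of the 7 heat shock genes with a row it was the 1 with an unadjusted p under 0.05, against 2.4% of all clusters.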
